A study of Rattus norvegicus with 6 samples.

Results

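The G protein and cyclic nucleotide signalling genes were followed in RNA of liver endothelial cells (LECs) from control and cirrhotic rats. The group comprised every gene whose symbol named a G protein subunit (Gna, Gnb, Gng), a regulator of G protein signalling (Rgs), an adenylyl cyclase (Adcy), a cyclic nucleotide phosphodiesterase (Pde) or a subunit of the cyclic AMP- or cyclic GMP-dependent kinases (Prkac, Prkar, Prkg). It held 70 genes on 94 probe sets, out of 10411 genes and 15866 probe sets measured. Members were chosen by a rule on the symbol and not by their values, though earlier results of these data were known. Another 5 probe sets carried a member's symbol together with that of a further gene (Gnai1 with Gnai3, or Pde11a with Cyct) and were left out.

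Cells were taken from control Wistar rats (3 arrays) and from adult male Wistar rats that had undergone cirrhosis induction (3 arrays), and both groups were measured on the Affymetrix rat 230A array. All livers were perfused with collagenase, and the cells were enriched by centrifugation and captured on antibody-coated magnetic beads. The sources used here do not state how cirrhosis was induced, what the antibody bound, or the age and sex of the control animals. Nor do they say how many animals each array stands for; the p-values therefore cover only the variation among these arrays, part of which may be technical. In such bulk samples, fewer cells of a type and less RNA per cell cannot be told apart.

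Heterotrimeric G proteins carry the signal of a receptor at the cell surface into the cell: an activated receptor loads the alpha subunit with GTP, alpha separates from the beta-gamma pair, and both act on enzymes and channels until alpha hydrolyses its GTP. RGS proteins speed up that hydrolysis and so shorten the signal. Adenylyl cyclases make cyclic AMP under the control of stimulatory and inhibitory alpha subunits, guanylyl cyclases make cyclic GMP in answer to nitric oxide or natriuretic peptides, phosphodiesterases break both nucleotides down, and protein kinases A and G (PKA, PKG) are their main targets. In the liver sinusoid, nitric oxide made by the endothelium raises cyclic GMP in the endothelial cell and in the contractile stellate cell beside it.

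Each value is the deposited signal of a probe set, on a linear scale on which the mean without the extremes lay between 399.2 and 399.6 on every array. Differences are cirrhotic minus control on the scale of log2(signal + 16), with their standard error (SE), and were tested with limma over the 9519 probe sets that were not among the dimmest 40%. Passing means a Benjamini-Hochberg adjusted p under 0.05. Over all tested probe sets, 2421 passed (25.4%), 1167 of them higher in cirrhotic LECs (12.3%) and 1254 lower (13.2%). Arrays of the same group correlated at 0.912 to 0.967 and arrays of different groups at 0.821 to 0.874. All 11 tested genes of the endothelial list were lower in cirrhotic LECs, with a summed signal of 22300 to 24910 against 47110 to 50950, while 6 of 9 tested genes of the stellate cell, pericyte and smooth muscle list were higher and none lower, with a sum of 15870 to 26890 against 4736 to 5394. In the bile duct list, 6 of 7 tested genes were higher, with a sum of 5125 to 12710 against 729.2 to 1468. In the list of hepatocyte genes 4 of 9 were higher (26980 to 44160 against 22510 to 28620). No marker was listed at 0. As a sign of RNA quality, the actin probe sets at the 3' end read over those at the 5' end by a factor of 1.22 to 1.57 in controls and 1.23 to 1.27 in cirrhotic LECs; for hexokinase the factor was 1.81 to 7.42 in controls and 2.47 to 2.91 in cirrhotic LECs.

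Of the 94 member probe sets, 59 (44 genes) were tested, 32 were dim (a mean signal under 100 over the 6 arrays), and those of Prkar1b, Prkar2b and Rgs14 were brighter than that but not tested. Of the 59, 15 passed (12 genes), which is the same share as among all tested probe sets (25.4%). Higher in cirrhotic LECs were 8 probe sets of 7 genes (Rgs5, Rgs1, Rgs4, Rgs16, Adcy3, Pde4b and Gng10), and lower were 7 probe sets of 5 genes (Rgs3, Pde2a, Gng11, Gnai2 and Gnb2). Centring each array on its median gave 6 higher and 9 lower. The 2 groups of arrays did not overlap for 26 of the 59, 44.1% against a background of 44.9%. The median member difference was -0.04 and that of all tested probe sets was -0.02. By class, 7 of 15 RGS probe sets passed, 4 of 19 G protein subunits, 1 of 6 adenylyl cyclases, 3 of 10 phosphodiesterases and 0 of 8 PKA subunits. By gene, 4 RGS genes were higher and 1 lower (Rgs3, on 3 probe sets) of 11 tested. Of 9 tested phosphodiesterase genes, 1 was higher (Pde4b, on 2 probe sets) and 1 lower (Pde2a). Calls for Rgs5, Rgs3, Pde4b, Pde2a and Gng11 (8 probe sets) held under every one of the 15 alternative analyses that tested them (Rgs5 and 1 Rgs3 probe set were too dim to be tested with a filter at 60%), and each of the other 7 was lost without at least 1 of the arrays.

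**Figure D1:**
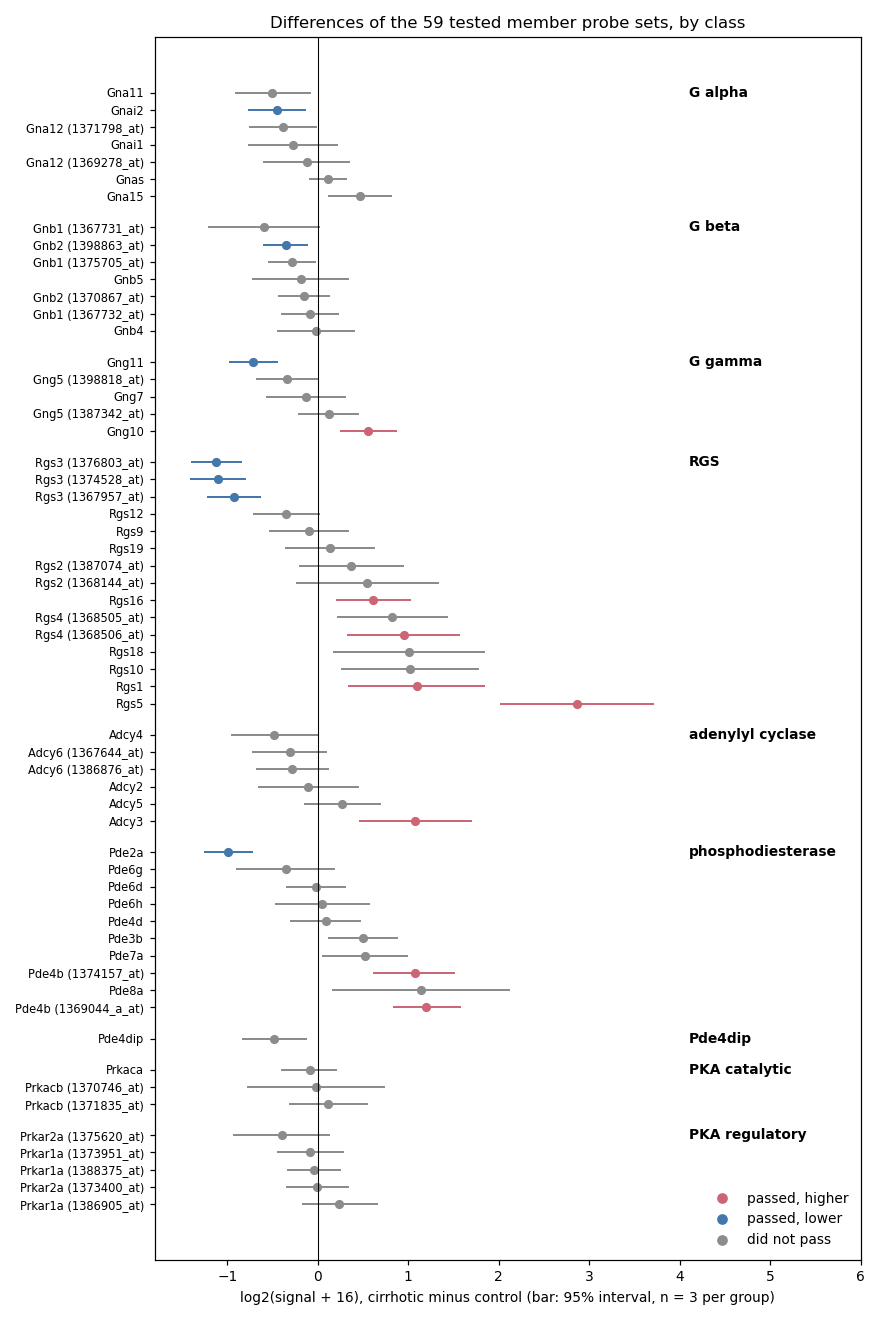
Log2 differences, cirrhotic minus control, of the 59 tested member probe sets, grouped by class, with bars for the 95% confidence interval; red and blue mark probe sets that passed higher and lower (limma, adjusted p under 0.05). The RGS class reaches from -1.12 (Rgs3) to 2.87 (Rgs5), and the PKA subunits lie between -0.39 and 0.24.

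The RGS class had the widest range of differences of the classes tested. Rgs5, an RGS protein best known from pericytes and vascular smooth muscle, rose. Its signal was 55.2, 46.8 and 72.1 on the control arrays and 683.1, 271.3 and 753.4 on the cirrhotic arrays. All 3 cirrhotic arrays were above all controls, and the highest of the 27 bacterial control probe sets reached 49.9, 43.9 and 31.2 on the same 3 control arrays. The difference was 2.87 (SE 0.36, limma adjusted p = 0.00164). Every control signal was under about 127.1, the level below which probe sets were not tested. Rgs5 was therefore tested only because of its cirrhotic signals. With controls this near the bacterial control level, the size of its difference is uncertain. Cirrhotic array 2 was the lowest of its group for Rgs5. It was also the lowest for the sum of the hepatocyte list (34880, 26980 and 44160). The same held for the stellate cell, pericyte and smooth muscle list (26890, 15870 and 20630). Of the latter list, Col1a1 (4.24), Pdgfrb (2.68) and Dcn (2.00), genes of fibrogenic cells, were higher. So was Tagln, a gene of contractile cells (294.0, 61.8 and 6.2 against 2934.9, 1835.2 and 1654.0, a difference of 4.69). Its control signals ranged from 6.2, under the bacterial control level of that array, to 294.0. Their mean was under the level of the test, so Tagln too was tested only because of its cirrhotic signals. The size of the Tagln difference is therefore uncertain as well. Acta2 and Myh11, the actin and myosin of contractile cells, were not tested; they read 20.9, 14.7 and 17.2 against 97.3, 51.6 and 37.9, and 86.2, 91.9 and 49.8 against 208.9, 168.7 and 125.9, without overlap. Ngfr stayed within the bacterial control level. The part of those cells in the difference of Rgs5 was not tested.

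Rgs4, which acts on the inhibitory and Gq classes of alpha subunit, had 2 probe sets. The one that passed had signals of 90.9, 140.0 and 137.3 in controls and 303.8, 167.2 and 298.2 in cirrhotic LECs, a difference of 0.95 (SE 0.26, limma adjusted p = 0.0339). Its control mean of 122.7 was under the test's level of about 127.1, so it was tested only because of its cirrhotic signals. The other read 195.5, 247.7 and 143.5 against 501.6, 299.5 and 286.1, and its difference of 0.82 had an adjusted p of 0.0524. In both probe sets every cirrhotic array was above every control array. The call of the first was lost without control array 1, 2 or 3 or cirrhotic array 1 or 3 (limma adjusted p of 0.101, 0.0579, 0.0709, 0.127 and 0.0785).

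In the RefSeq annotation of the rat assembly GRCr8, Rgs5 and Rgs4 are neighbours on chromosome 13, with 0 protein-coding genes between them. Their windows from 250 bases before to 50 bases after the annotated start are given here with those of Rgs3 and Gng11, which fell, because cyclic AMP acts on transcription through the cyclic AMP response element (CRE). Capitals mark its core, TGACG, on either strand; windows without capitals hold no match.
Rgs5: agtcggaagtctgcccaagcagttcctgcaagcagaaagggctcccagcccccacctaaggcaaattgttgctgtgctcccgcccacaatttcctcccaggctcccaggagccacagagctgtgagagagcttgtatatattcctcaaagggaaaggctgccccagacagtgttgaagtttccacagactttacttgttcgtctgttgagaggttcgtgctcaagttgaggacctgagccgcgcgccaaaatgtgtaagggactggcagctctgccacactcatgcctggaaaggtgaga
Rgs4: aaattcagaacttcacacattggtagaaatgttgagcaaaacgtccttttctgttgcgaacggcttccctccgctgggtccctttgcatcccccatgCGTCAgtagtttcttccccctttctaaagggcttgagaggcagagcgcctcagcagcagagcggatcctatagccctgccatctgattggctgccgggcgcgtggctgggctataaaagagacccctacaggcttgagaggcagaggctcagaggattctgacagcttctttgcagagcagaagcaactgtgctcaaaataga
Rgs3: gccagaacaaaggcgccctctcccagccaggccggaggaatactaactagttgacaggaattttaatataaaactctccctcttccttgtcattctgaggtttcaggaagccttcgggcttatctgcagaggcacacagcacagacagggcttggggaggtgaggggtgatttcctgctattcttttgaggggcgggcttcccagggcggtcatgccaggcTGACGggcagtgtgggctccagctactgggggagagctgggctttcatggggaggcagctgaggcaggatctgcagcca
Gng11: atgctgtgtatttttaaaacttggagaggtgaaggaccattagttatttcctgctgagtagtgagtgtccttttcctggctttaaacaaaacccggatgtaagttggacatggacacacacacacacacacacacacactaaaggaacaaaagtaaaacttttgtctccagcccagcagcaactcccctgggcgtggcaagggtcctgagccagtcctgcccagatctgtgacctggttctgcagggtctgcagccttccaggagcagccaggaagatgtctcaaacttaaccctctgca

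These windows are chr13:84380827-84381126 on the plus strand (Rgs5), chr13:84475835-84476134 on the minus strand (Rgs4), chr5:81093801-81094100 on the plus strand (Rgs3) and chr4:32977431-32977730 on the plus strand (Gng11). The core began at position -153 relative to the start in Rgs4 and at -29 in Rgs3. Of the members, 52 had such a window (66 windows in all), and 18 of the 66 held the core on at least 1 strand (27.3%), against 21.2% of all 33469 windows. Of the 36 tested member genes with a window, 12 held the core, whether they passed or not. Those that passed and held it were Gnb2, Rgs1, Rgs3 and Rgs4, of which Rgs1 and Rgs4 rose. The full element, TGACGTCA, was in 1 member window, that of Gnao1 (1.52%), against 1.83% of all windows. The CArG box, the site of serum response factor in smooth muscle genes, was in 0 member windows against 1.64% of all. A match is a description of the sequence.

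Rgs3, which also turns off the inhibitory and Gq classes of alpha subunit, fell on all 3 of its probe sets. The brightest read 2017.7, 1955.1 and 2097.1 in controls and 970.0, 1183.4 and 1029.9 in cirrhotic LECs, a difference of -0.93 (SE 0.12, limma adjusted p = 0.00196). The others read 421.0, 351.1 and 382.5 against 169.5, 168.5 and 175.0 (-1.10, adjusted p = 0.00131 in limma), and 421.6, 440.2 and 437.3 against 191.5, 187.5 and 191.5 (-1.12, adjusted p = 0.000851). No array of either group overlapped the other on any of the 3. The endothelial genes moved with it, with a median difference of -1.03 over 11 genes, and their part in the fall of Rgs3 was not tested.

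Rgs1, an RGS protein of B and T lymphocytes that dampens chemokine receptors, had signals of 1119.5, 1362.8 and 946.5 in controls and 2926.8, 3516.5 and 1400.0 in cirrhotic LECs. It rose by 1.10 (SE 0.32, limma adjusted p = 0.0417), with cirrhotic array 3 close to the controls. The call was lost without control array 1, 2 or 3 or cirrhotic array 1 or 2 (adjusted p from 0.0666 to 0.138 in limma), and without cirrhotic array 3 the difference was 1.49 (adjusted p = 0.00139). Rgs16, which is induced in activated lymphocytes and other cells, read 409.9, 400.9 and 463.4 against 760.8, 727.2 and 510.0, a rise of 0.61 (SE 0.18, limma adjusted p = 0.0378). It too was lowest on cirrhotic array 3, and its call was lost without control array 1, 2 or 3 or cirrhotic array 1 or 2 (adjusted p from 0.0778 to 0.131) and on median-centred arrays (0.53, adjusted p = 0.0688).

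Rgs10 and Rgs18, both known from platelets and myeloid cells, did not pass with all arrays. Rgs10 read 335.1, 322.9 and 190.8 against 612.6, 852.2 and 362.9 (1.02, SE 0.32, limma adjusted p = 0.0526). Rgs18 read 57.4, 122.6 and 102.2 against 177.0, 331.1 and 130.5 (1.01, SE 0.36, limma adjusted p = 0.075). In both the cirrhotic arrays were above the controls, with array 3 the lowest, and both passed without that array (limma adjusted p = 0.00999 for Rgs10 and 0.0348 for Rgs18). Every control signal of Rgs18 was under the test's level of about 127.1, so Rgs18 was tested only because of its cirrhotic signals. Rgs14, an RGS protein of lymphoid tissue and brain, was not tested; it read 71.1, 60.7 and 46.6 against 184.6, 237.7 and 68.4, with control array 1 above cirrhotic array 3.

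Cirrhotic array 3 was also the lowest cirrhotic array for 7 of 7 macrophage genes, 8 of 10 T and NK cell genes, 3 of 3 B and plasma cell genes, 6 of 7 mast cell genes, 2 of 2 neutrophil genes and 3 of 5 platelet and erythroid genes. The same held for 8 of 8 bile duct genes, while that array was the highest for 9 of 9 hepatocyte genes. It was also the highest for 2 T and NK cell genes and for 2 platelet and erythroid genes. The share of all probe sets that were lowest on that array is not given here, so these counts have no background. The summed signal of the T and NK cell list was 5786, 6866 and 3736 on the cirrhotic arrays and 3258 to 4497 on the controls. The macrophage list summed to 8297, 6459 and 3583 against 3129 to 7229. Of its 7 tested genes, 1 was higher, 1 was lower and 5 did not pass, with a median difference of -0.85. The mast cell list summed to 3617, 4385 and 1278 against 651.4 to 938.5. B and plasma cell genes summed to 1344, 1357 and 720.0 against 406.3 to 609.3. The 2 neutrophil genes, neither of which was tested, summed to 1189, 828.6 and 47.1 against 11.6 to 55.2. For platelet and erythroid genes the sum was 7674, 7217 and 2166 against 944.6 to 1795, and for bile duct genes 12710, 11930 and 5125 against 729.2 to 1468. The part of any of those cells in the differences of Rgs1, Rgs10, Rgs16 and Rgs18 was not tested.

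**Figure D2:**
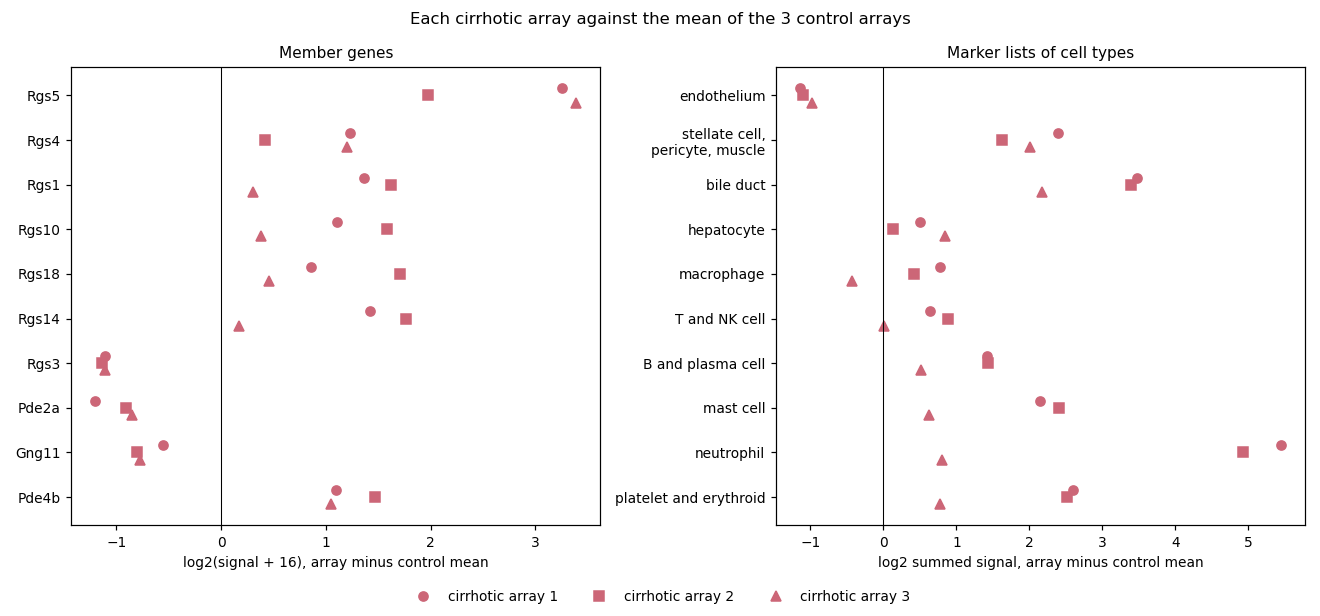
Difference of each cirrhotic array from the mean of the controls, on the log2 scale, for chosen members and for the summed signal of each marker list. Shown are Rgs5, Rgs4, Rgs1, Rgs3, Pde2a, Gng11 and Pde4b, which passed, Rgs10 and Rgs18, which did not pass, and Rgs14, which was not tested. Rgs5 stands at 3.25, 1.97 and 3.39 on arrays 1, 2 and 3. It is lowest on array 2, as are the hepatocyte list and the stellate cell, pericyte and smooth muscle list. Rgs1 stands at 1.36, 1.62 and 0.30, lowest on array 3 as the mast cell, bile duct and other lists.

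Rgs2, which prefers Gq and is itself induced by cyclic AMP, did not pass on either probe set. They read 1465.3, 3364.1 and 2051.9 against 3479.7, 4270.9 and 2145.4 (0.55, SE 0.34, limma adjusted p = 0.264), and 3696.9, 6145.0 and 4100.4 against 6634.5, 7202.3 and 4222.7 (0.37, SE 0.25, limma adjusted p = 0.299). The groups overlapped on both, with control array 2 the highest control. Rgs2, Rgs1 and Rgs18 lie in a row on chromosome 13 of GRCr8, with 1 protein-coding gene between each pair. The remaining tested members of the class were Rgs9, Rgs12 and Rgs19, with differences of -0.10, -0.35 and 0.14, none of which passed.

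**Figure D3:**
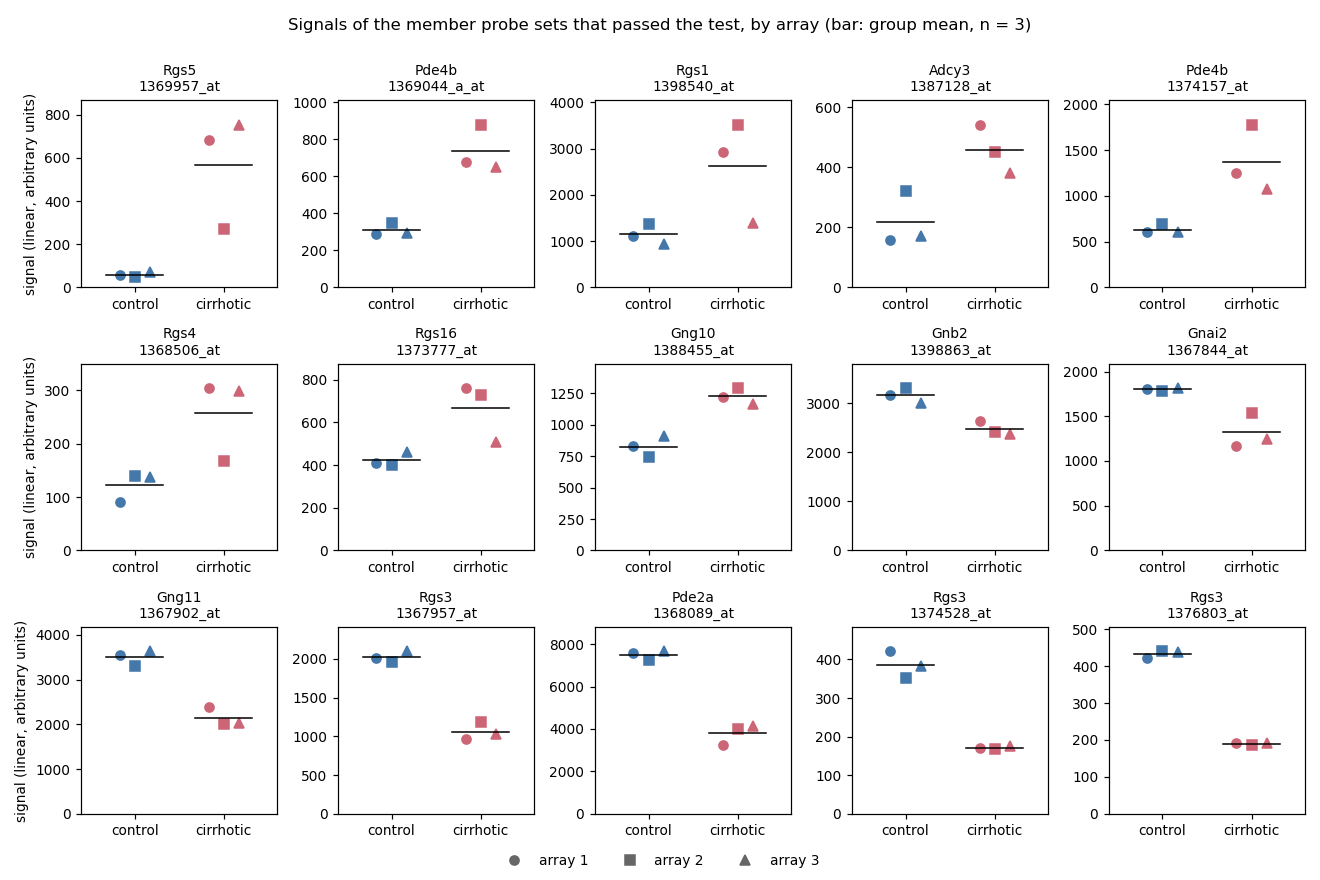
Deposited signal on each of the 6 arrays, 1 panel per probe set, for members that passed the test, with 3 control and 3 cirrhotic points and a line at the mean of each group. The linear axis of each panel starts at 0; Rgs3 fell on 3 of 3 probe sets, from 2017.7, 1955.1 and 2097.1 to 970.0, 1183.4 and 1029.9 on the brightest, without overlap.

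Among the alpha subunits, Gnai2, the inhibitory subunit that lowers cyclic AMP, was the only tested one of 7 probe sets (6 genes) to pass. It read 1803.5, 1781.9 and 1814.6 in controls and 1169.7, 1541.1 and 1246.4 in cirrhotic LECs, and fell by 0.45 on the log2 scale (SE 0.13, limma adjusted p = 0.0425). The groups did not overlap, yet the call was lost without control array 1, 2 or 3 or cirrhotic array 1 or 3 (limma adjusted p from 0.0757 to 0.138). Gnas, the stimulatory subunit that activates adenylyl cyclase, read 5906.4, 5804.5 and 6622.9 against 6786.1, 6561.3 and 6406.9 on its tested probe set (0.11, SE 0.09, limma adjusted p = 0.384); its other 2 probe sets were dim.

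The subunits of the Gq class activate phospholipase C beta. Gna11 read 177.4, 216.9 and 204.8 against 112.6, 141.2 and 159.4, without overlap (-0.50, SE 0.18, limma adjusted p = 0.0741); it passed on quantile-normalized (-0.58, adjusted p = 0.0474) and on median-centred arrays (-0.57, adjusted p = 0.0483). Gna15, the class member of blood cells, read 156.4, 175.2 and 164.3 against 258.0, 242.8 and 204.7 (0.47, SE 0.15, limma adjusted p = 0.0534) and passed without cirrhotic array 3 (0.56, adjusted p = 0.0401). Gna11 and Gna15 are neighbours on chromosome 7 of GRCr8, and their differences had opposite signs. Gnaq was dim (89.9, 140.8 and 127.9 against 60.8, 77.8 and 92.8). Gna12 differed by -0.12 and -0.38 on its 2 probe sets; neither passed with all arrays, and the second did without control array 2 (-0.53, limma adjusted p = 0.0445). Gnai1 differed by -0.27 (limma adjusted p = 0.367). Gna13, Adcy9 and Prkg1 were not analysed here.

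Of the beta and gamma subunits, Gng11, a gamma subunit with a farnesyl anchor that is abundant in endothelium, fell. Its signals were 3553.9, 3314.6 and 3633.6 in controls and 2388.0, 2004.8 and 2039.4 in cirrhotic LECs, a difference of -0.71 (SE 0.11, limma adjusted p = 0.0041) with no overlap. Gng10, a widely expressed gamma subunit, rose from 827.9, 740.0 and 908.8 to 1218.6, 1290.6 and 1163.6 (0.56, SE 0.13, limma adjusted p = 0.0166). Its groups did not overlap, but its call was lost without control array 1 or 2 or cirrhotic array 1 (limma adjusted p of 0.0565, 0.0534 and 0.0596) and on median-centred arrays, where the difference was 0.49. Gng5 differed by 0.12 and -0.34 on its 2 probe sets and Gng7 by -0.13, and none passed.

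All 7 tested beta subunit probe sets had differences below 0, of which 1 passed, for Gnb2. On that probe set Gnb2 read 3168.2, 3307.4 and 3011.6 against 2640.0, 2409.7 and 2378.8, and fell by 0.35 on the log2 scale (SE 0.10, limma adjusted p = 0.0394); without any 1 of the 6 arrays it did not pass (adjusted p from 0.0641 to 0.115), nor on quantile-normalized arrays (-0.30, adjusted p = 0.0626). Its other probe set read 1439.9, 1290.2 and 1263.5 against 1273.8, 1203.9 and 1109.9 (-0.15, adjusted p = 0.39 in limma), with overlap. Gnb1, a widely expressed beta subunit, differed by -0.59, -0.09 and -0.28 on its 3 probe sets, none of which passed with all arrays. The first passed without control array 2, the lowest control at 324.1 (-0.91, limma adjusted p = 0.0132). Gnb4 and Gnb5 differed by -0.02 and -0.19.

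Adenylyl cyclases were represented by 6 tested probe sets of 5 genes, of which only Adcy3 passed. Adcy3, a cyclase best known for its role in odour sensing and in primary cilia, read 158.9, 319.5 and 170.6 in controls and 541.8, 451.7 and 380.7 in cirrhotic LECs. It rose by 1.08 (SE 0.26, limma adjusted p = 0.0206) with no overlap. The call was lost without control array 1 or 3 or cirrhotic array 1 (limma adjusted p of 0.0688, 0.0814 and 0.0825). Adcy4, a cyclase of endothelial cells, read 945.6, 729.4 and 888.1 against 684.0, 719.8 and 450.6 (-0.48, SE 0.20, limma adjusted p = 0.12). Adcy6, which calcium inhibits, differed by -0.31 and -0.28 on its 2 probe sets, Adcy2 by -0.11 and Adcy5 by 0.27, and none of them passed.

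Among phosphodiesterases, Pde2a fell and Pde4b rose. Pde2a, which breaks down cyclic AMP and cyclic GMP and is stimulated by cyclic GMP, read 7599.2, 7252.6 and 7657.0 in controls and 3263.6, 3974.7 and 4145.0 in cirrhotic LECs. The difference was -0.99 (SE 0.11, limma adjusted p = 0.00101), and every cirrhotic array was below every control array. The endothelial genes had a median difference of -1.03, and their part in the falls of Pde2a and Gng11 was not tested.

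Pde4b, a cyclic AMP-specific phosphodiesterase of immune cells that its own substrate's pathway induces, had 2 probe sets, and both passed. They read 288.9, 345.4 and 291.3 against 675.7, 877.7 and 651.8 (1.20, SE 0.16, limma adjusted p = 0.00192), and 606.6, 688.3 and 599.3 against 1254.1, 1777.4 and 1075.2 (1.07, SE 0.19, limma adjusted p = 0.00675). Groups did not overlap on either. Cirrhotic array 2 was the highest and array 3 the lowest on both. The T and NK cell, B and plasma cell and mast cell lists had the same order. The part of those cells in the rise of Pde4b was not tested. Without cirrhotic array 3, and in every other alternative, both kept passing. Pde4d, the other tested gene of the PDE4 family, read 181.8, 243.5 and 169.7 against 204.9, 213.8 and 210.8 (0.09, SE 0.17, limma adjusted p = 0.722).

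The other tested phosphodiesterases did not pass. Pde3b, which cyclic GMP inhibits and insulin activates, read 170.9, 173.2 and 181.3 against 230.6, 313.9 and 228.2, without overlap (0.50, SE 0.16, limma adjusted p = 0.0559). Pde7a, a cyclic AMP-specific enzyme of T cells, differed by 0.52 (SE 0.20, limma adjusted p = 0.0911) and passed without cirrhotic array 3 (0.72, adjusted p = 0.0193). Pde8a, also specific for cyclic AMP, read 144.0, 81.0 and 345.4 against 327.6, 430.2 and 373.6 (1.14, SE 0.42, limma adjusted p = 0.0824) and passed without control array 3, the one control at the cirrhotic level (1.65, adjusted p = 0.0107). Pde6d, Pde6g and Pde6h, subunits of or partners to the photoreceptor enzyme, differed by -0.02, -0.35 and 0.05. Pde4dip (myomegalin), a Golgi and centrosome protein that binds a phosphodiesterase and is not one itself, differed by -0.48 (SE 0.15, limma adjusted p = 0.0512) and passed on median-centred and on quantile-normalized arrays.

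None of the 8 tested PKA probe sets passed the test, and 0 had an unadjusted p under 0.05 in limma. No alternative called any of those 8. Prkaca, a catalytic subunit, read 467.8, 404.8 and 477.5 against 418.2, 398.1 and 445.3 (-0.09, SE 0.13), and Prkacb, another, differed by -0.02 and 0.11 on its 2 probe sets. Prkar1a, the regulatory subunit of type I PKA, differed by -0.08, 0.24 and -0.04 on its 3 probe sets, and Prkar2a by -0.01 and -0.39. The SE of these 8 differences ranged from 0.13 to 0.32. Prkar2b, a type II regulatory subunit below the brightness limit of the test, read 84.5, 98.3 and 60.5 in controls and 239.4, 163.4 and 151.7 in cirrhotic LECs, without overlap. Fitted with all 15866 probe sets, of which 15.5% passed, it had a difference of 1.04 (limma adjusted p = 0.0279). Prkg2, the PKG of type II, was dim (59.7, 61.4 and 42.5 against 35.2, 33.2 and 60.6).

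The 32 dim probe sets had mean signals from 2.52 to 98.3. Their groups did not overlap in 8 (25.0%), against 19.9% of all probe sets with a mean under 100; 3 were higher in cirrhotic LECs and 5 lower. Pde1a, a phosphodiesterase that calcium and calmodulin activate and that smooth muscle expresses, read 8.7, 7.2 and 2.0 against 59.3, 34.1 and 63.4. Its control signals were within the bacterial control level, which puts it at least 1.23-fold higher in cirrhotic LECs. Gng8, a gamma subunit known from sensory neurons, read 34.3, 30.7 and 28.7 against 115.0, 77.3 and 121.7, at least 2.51-fold higher by the same bound. Pde10a, a phosphodiesterase with high levels in the striatum, read 22.5, 27.2 and 55.9 against 96.0, 105.1 and 94.8 on 1 probe set and overlapped on the other. In the fit with all probe sets, these 3 passed (limma adjusted p of 0.00476 for Pde1a, 0.00677 for Gng8 and 0.0206 for Pde10a).

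The 5 lower ones included Gnao1 and 1 of 2 probe sets of Gnaz, both alpha subunits of the inhibitory class. The others were Rgs7, an RGS protein of neurons, Adcy10, the soluble cyclase that bicarbonate activates, and the second probe set of Pde4dip. None of those 5 passed in the fit with all probe sets. On its other probe set, also dim, Gnaz overlapped (67.8, 123.7 and 62.7 against 73.6, 69.4 and 38.3). Pde5a, the cyclic GMP-specific enzyme of vascular smooth muscle, was dim and overlapped (54.6, 79.6 and 20.5 against 59.5, 65.2 and 87.1). The probe sets of Pde1b and Pde7b and the dim one of Adcy5 stayed within the bacterial control level on every array.

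**Figure D4:**
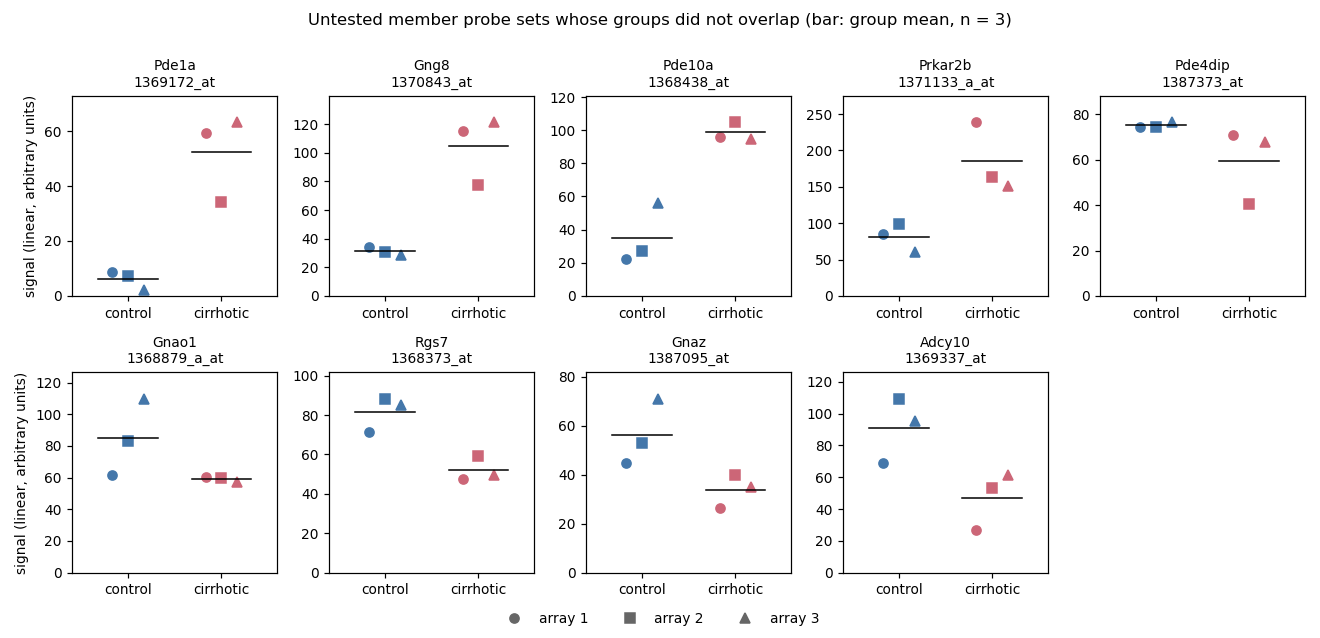
Signal on each array of member probe sets outside the test whose groups did not overlap, with 3 control and 3 cirrhotic points per probe set. Pde1a, Gng8, Pde10a and Prkar2b lie higher in cirrhotic LECs and the other 5 lower; Pde1a controls, at 8.7, 7.2 and 2.0, are within the bacterial control level of 31.2 to 49.9 on those arrays.

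The genes around the members were taken as lists, each gene on its brightest probe set. Their counts stand beside the 25.4% of all tested probe sets that passed and a median of -0.02; the lists are short, and no list was tested against another or against the rest. Of the guanylyl cyclases, natriuretic peptide receptors and the endothelial nitric oxide synthase, all 5 tested genes passed, 2 higher and 3 lower, with a median of -0.70. Npr1, the natriuretic peptide receptor that makes cyclic GMP, fell from 2674.2, 2195.8 and 2482.7 to 713.7, 797.8 and 668.9 (-1.73, SE 0.13, limma adjusted p = 0.000442), and its relative Npr2 fell by 0.83 on the log2 scale (adjusted p = 0.0103). Gucy1b1, the beta subunit of the nitric oxide-sensitive cyclase, rose from 190.8, 179.4 and 193.7 to 428.2, 292.9 and 318.7 (0.81, SE 0.17, limma adjusted p = 0.0106). Its alpha partner Gucy1a1 rose from 502.9, 348.6 and 431.6 to 1306.1, 604.6 and 1154.7 (1.17, adjusted p = 0.0214), lowest on cirrhotic array 2 like Rgs5. That call was lost without control array 2 or 3 or cirrhotic array 1 (limma adjusted p of 0.0725, 0.0692 and 0.0789). Nos3, the synthase itself, fell by 0.70 on the log2 scale (adjusted p = 0.0111), and by 0.66 without control array 3 (adjusted p = 0.0509 in limma). The part of endothelial cells, or of stellate cells, pericytes and smooth muscle, in these differences was not tested.

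Around PKA, 6 of 10 tested anchors and inhibitors passed, 4 higher and 2 lower (median -0.21). The inhibitor peptides Pkia and Pkig, which block the catalytic subunit, rose by 1.59 (SE 0.20, limma adjusted p = 0.00149) and 1.07. Pkia read 98.2, 82.5 and 61.5 in controls and 280.4, 237.7 and 300.5 in cirrhotic LECs, without overlap. Its control signals were under the test's level of about 127.1, so Pkia was tested only because of its cirrhotic signals. Of the anchor proteins, Akap13 rose by 1.35 and Akap12 fell by 0.79 on the log2 scale. The others, named after their values were seen, were Ezr, which links membrane to actin (1.11), and the anchor Akap7 (-0.59); both were lost without control array 1 or 3 or cirrhotic array 1 (limma adjusted p from 0.0637 to 0.0964). Of the list of cyclic AMP effectors other than PKA, which also held Rap1a, Rap1b and Rap1gap, 1 of 9 tested genes passed. Rapgef2, an exchange factor for Rap1, fell from 4669.4, 4544.7 and 5427.0 to 1743.6, 1993.1 and 2324.9 (-1.27, limma adjusted p = 0.000927). Rap1gap (0.79), Rapgef3 (-0.57, without overlap) and Popdc2 (0.86) did not pass (limma adjusted p of 0.0783, 0.0795 and 0.157). Popdc2, with a control mean of 113.5, was likewise tested only because of its cirrhotic signals. Of the transcription factors of the CREB family and their cofactors, 1 of 12 passed: Crebbp, the coactivator, fell by 0.76 on the log2 scale (limma adjusted p = 0.0152), and without control array 1 or 3 it did not pass (0.0568 and 0.0642). Creb1 differed by -0.08. Of PKG substrates and exporters of cyclic nucleotides, 1 of 4 passed, the exporter Abcc5, which fell by 0.82 on the log2 scale (limma adjusted p = 0.00452).

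Among effectors of G proteins, 5 of 10 tested genes passed, 1 higher and 4 lower (median -0.46). Plcb4 and Plcb1, phospholipases C that Gq activates, fell by 0.93 and by 0.69 on the log2 scale. Prkce, a protein kinase C, fell by 0.97 and its relative Prkcd rose by 0.96. Itpr3, a calcium channel that inositol trisphosphate opens, is named after its values were seen as the remaining one; it fell by 0.64. Calls for Plcb1, Prkcd and Itpr3 were lost without at least 1 array: Plcb1 without control array 2 or 3 or cirrhotic array 1 or 2 (limma adjusted p from 0.0825 to 0.128), Prkcd without control array 1, 2 or 3 or cirrhotic array 1 (0.0511 to 0.0888), and Itpr3 without control array 1 or 3 or cirrhotic array 1 or 3 (0.0966 to 0.145). Of receptor kinases and arrestins, 2 of 4 passed: Grk5, a kinase that desensitizes receptors, rose by 1.01 (limma adjusted p = 0.00643), and Arrb2, an arrestin, fell by 0.51 on the log2 scale (adjusted p = 0.0426), which was lost without control array 1, 2 or 3 or cirrhotic array 1 or 3 (0.0646 to 0.143). Of other regulators, 1 of 6 passed, Pdcl3, a phosducin-like chaperone, which rose by 0.63 (limma adjusted p = 0.0088).

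**Figure D5:**
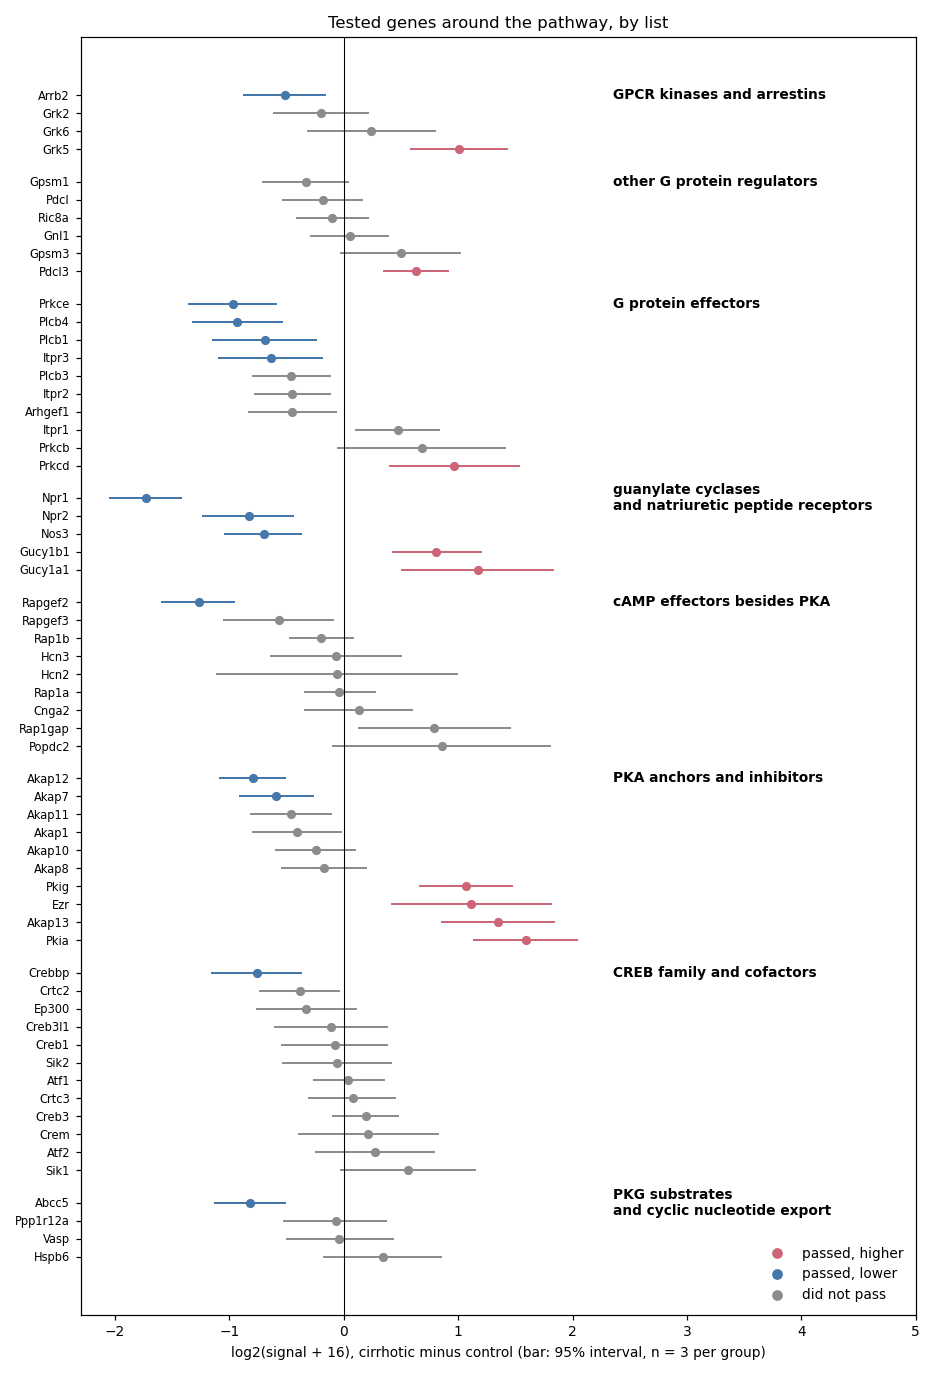
Log2 differences, cirrhotic minus control, with 95% confidence intervals of all tested genes of the pathway lists, in blue or red where they passed. Npr1 lies lowest at -1.73 and Pkia highest at 1.59.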

How the data were processed

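The deposited table gives 1 intensity (a linear signal, not a log) for each probe set on 6 Affymetrix rat 230A arrays (3 control, 3 cirrhotic; groups and numbers from the sample titles). Which software and scaling the authors used is not given in the sources used here. The values were used as deposited. Hybridization followed the manufacturer's manual, per the labels. No depth applies to arrays; their number limits the precision.

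Members were probe sets with exactly 1 gene symbol matching the name rule. Members and lists were chosen with earlier results of these data known. Symbols came from GEO's platform annotation and were checked by gene ID against RefSeq, where all 70 were found with 0 changed. The 57 control probe sets and the dimmest 40% by mean log2(signal + 16), 6347 probe sets below a signal of about 127.1, were left out. limma 3.58.1 in R 4.3.3 (lmFit, eBayes with a variance trend, two-sided) was fitted to the remaining 9519, with Benjamini-Hochberg adjustment over all of them; the scripts were tested on simulated data. No count tool was used.

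Genes were named by rule: in each class the genes that passed without overlap between groups, up to 6; a list of central members whatever their result; dim members without overlap; all probe sets of a named gene; and up to 4 tested genes of each pathway list by smallest p. At-least folds set the brighter group against the highest bacterial control probe set on each array of the dimmer group. Of the 70 genes, 52 had a RefSeq promoter window. Same-numbered control and cirrhotic arrays did not deviate together (r of 0.02, -0.01 and -0.16), and 1 control title carries no number, so the numbers were not used as pairs. Alternatives were other scalings, pseudocounts and filters, no variance trend, the array number as a block, probe sets of shared sequence left out, and each array left out in turn.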

Additional observations from a re-analysis of the deposited data

How the results depend on the processing

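Over 15 alternatives, 859 member values were recomputed: 769 kept their direction and their side of the threshold, 45 no longer passed, 18 newly passed and 0 reversed; 27 differences that passed under neither setting changed sign. Without each array in turn, between 1341 and 2472 of all probe sets passed and between 8 and 17 members. Likewise RGS probe sets ranged from 4 to 9, G protein subunits from 1 to 3, and adenylyl cyclases from 0 to 1. With no filter on dim probe sets, 4 RGS, 5 phosphodiesterase and 1 PKA probe sets passed; more probe sets were then adjusted over (15866), and dim ones could pass. That setting ended the calls of Rgs1, Rgs4, Rgs16 and Gnb2. Without the variance trend the calls of Gnai2 and Gnb2 were lost, and Pde3b, Gna15 and Pde4dip passed. With the array number as a replicate block, 2 G protein subunit probe sets passed and 13 members in all (8 higher, 5 lower), against 1948 of all probe sets; the calls of Gnai2, Gnb2, Rgs16 and Rgs4 were lost, and Rgs18 and Rgs10 passed. The cause of these changes was not tested. Limits: 3 arrays per group give member differences an SE up to 0.42, detection calls were not used here, and the deposited scaling cannot show a change in total RNA per cell.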
